A study of Mus musculus with 20 samples.

Results

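The Cyp4 genes encode cytochrome P450 enzymes that hydroxylate the terminal (omega) carbon of fatty acids and eicosanoids. The 10 genes described here are Cyp4a10, Cyp4a12a, Cyp4a12b, Cyp4a14, Cyp4a31, Cyp4a32, Cyp4b1, Cyp4f14, Cyp4f15 and Cyp4v3. They were picked by name, and where a symbol has several array features the one with the highest mean over all arrays is to be used. Of the 10 genes 9 had a feature, each had 1 feature only, so that this choice by signal level removed nothing, and they are 9 of 19505 genes tested. Cyp4v3 was not analysed here. The livers came from mice labelled OGTL KO at 8 weeks, OGTL WT at 8 weeks, OGTL KO at 4 weeks and OGTL WT at 4 weeks, called KO and WT below, with 5 mice and 5 Clariom S Mouse arrays per group and 20 arrays in all. OGT is the O-GlcNAc transferase, which puts single N-acetylglucosamine sugars on proteins inside the cell. Sex, strain, feeding state at sampling and the promoter that drives the liver deletion are not named in the labels, and the 4 groups share no other named allele or agent. Powdered frozen liver was extracted whole, so fewer cells of a type and less RNA per cell cannot be told apart.

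In the smooth endoplasmic reticulum of the hepatocyte a Cyp4 enzyme takes electrons from cytochrome P450 reductase, adds a hydroxyl group to the methyl end of a fatty acid, and so starts omega-oxidation. Alcohol and aldehyde dehydrogenases turn the product into a dicarboxylic acid, which peroxisomes shorten. In mouse liver Cyp4a10 and Cyp4a14 are classic targets of the nuclear receptor PPARalpha, which pairs with RXR and responds to fatty acids, while the Cyp4a12 genes are known for expression in males under androgen and growth hormone control. Cyp4f enzymes hydroxylate leukotriene B4 and other eicosanoids. In the RefSeq annotation of GRCm38.p6, Cyp4a12a, Cyp4a12b, Cyp4a14, Cyp4a10, Cyp4a31, Cyp4a32 and Cyp4b1 follow each other in this order on chromosome 4, with other Cyp4 genes and pseudogenes between them, and Cyp4f15 and Cyp4f14 are neighbours on chromosome 17. The Cyp4a12 pair and the Cyp4a10, Cyp4a31 and Cyp4a32 genes are close copies, and how far their features share signal could not be determined from the files.

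Values are log2 signals, on which a difference of 1 is a 2-fold change. Ogt, the targeted gene, averaged 9.81 ± 0.21 in KO and 10.08 ± 0.20 in WT at 8 weeks, and 8.14 ± 0.53 in KO and 9.57 ± 0.31 in WT at 4 weeks (SD, n = 5 each). The difference was -0.27 at 8 weeks (limma adjusted p = 0.529, groups overlapping) and -1.43 at 4 weeks (adjusted p = 8.82e-05), so the KO label at 8 weeks goes with an Ogt signal for which no fall was called. Hepatocyte markers, 9 of 10 of which were measured, averaged 18.001 to 18.296 on KO arrays, against 18.014 to 18.279 on WT arrays, at 8 weeks. At 4 weeks they averaged 17.803 to 18.114 on KO arrays, against 18.089 to 18.277 on WT arrays, and 4 of the 5 KO arrays lay below every WT array. None of the 9 was below background, and none was called between KO and WT at either age. Muscle transcripts stood apart on KO replicates 4 and 5 and WT replicate 4 at 4 weeks, where 10 muscle markers averaged 11.466 to 13.926, against 4.571 to 6.047 on the remaining arrays. At 8 weeks 7 cholangiocyte markers averaged 6.761 to 9.099 on KO arrays, against 4.917 to 5.803 on WT arrays, and 10 stellate cell and fibroblast markers averaged 8.92 to 10.242 on KO arrays, against 7.423 to 8.306 on WT arrays. Macrophage markers, 9 in number, averaged 7.428 to 8.66 on KO arrays, against 7.409 to 7.619 on WT arrays, at 8 weeks (4 called higher), and 8.454 to 8.973 on KO arrays, against 7.877 to 8.444 on WT arrays, at 4 weeks (2 called higher). Over all genes, 4.94% were called higher at 8 weeks and 4.7% at 4 weeks. The part of cell types other than hepatocytes in the Cyp4 results was not tested. Values without the arrays with muscle transcripts are given where they bear on a call or a count. The Y-linked genes Eif2s3y, Uty and Kdm5d gave signals of 11.08 to 12.09, 8.86 to 10.1 and 6.11 to 7.92 over the 20 arrays. Each was above the background level defined below on every array, so no array lacked Y-linked signal.

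**Figure D1:**
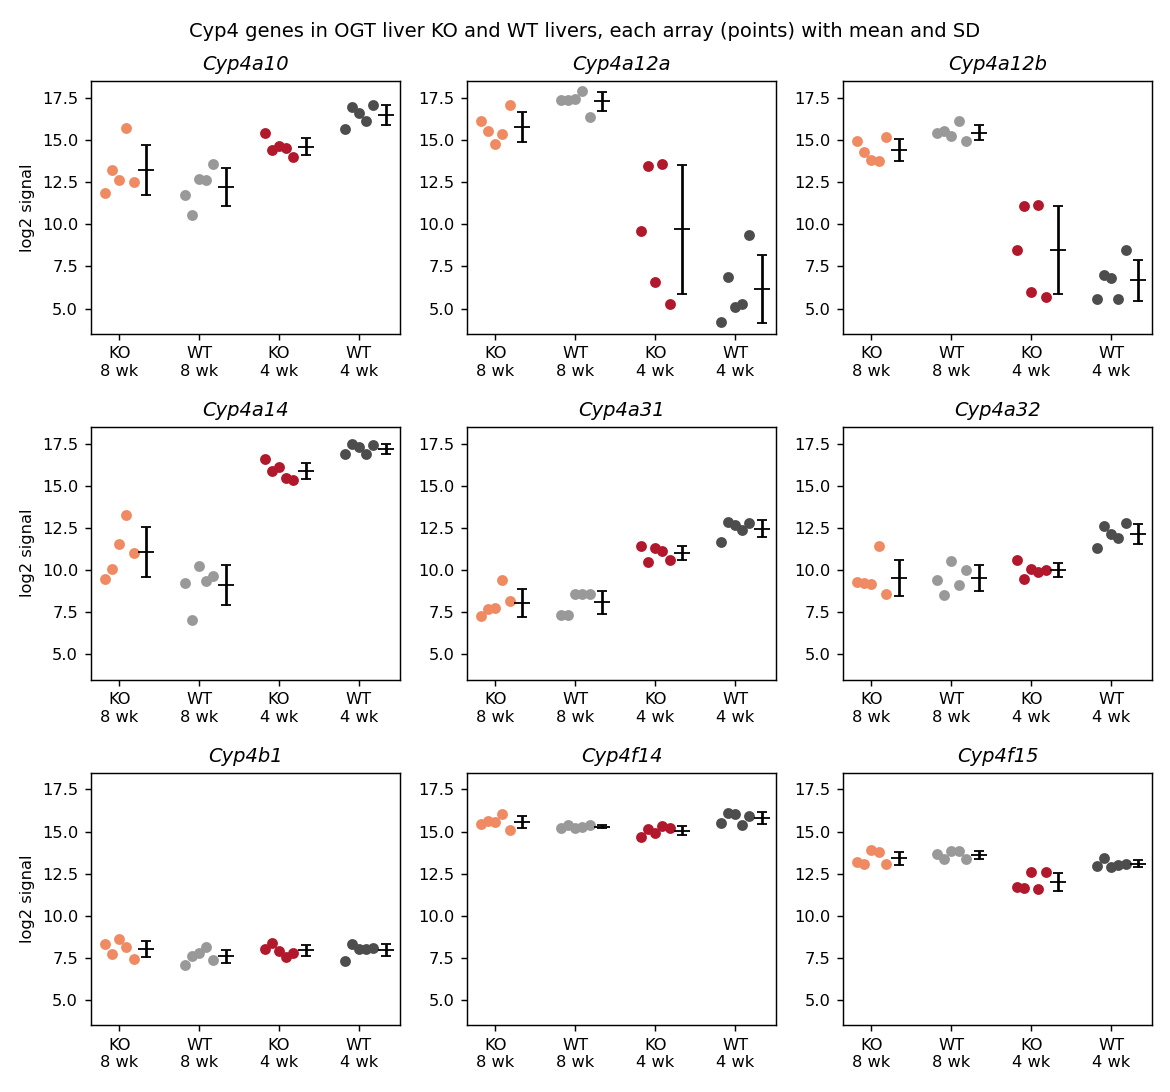
Log2 signal (vertical axis) of the 9 measured Cyp4 genes on each array (points), with group mean and SD beside them, for KO and WT livers at 8 and 4 weeks. Cyp4a12a averages 15.78 in KO and 17.29 in WT at 8 weeks, and its 5 KO arrays at 4 weeks scatter from 5.29 to 13.58.

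All 9 genes had group means above background in every group, background being the 95th percentile of group means of 1412 olfactory and vomeronasal receptor genes, 5.015 to 5.196 by group. Cyp4a12a and Cyp4a12b had the order WT at 8 weeks, KO at 8 weeks, KO at 4 weeks, WT at 4 weeks. Within each age their KO and WT arrays overlapped, and between the ages they did not. Cyp4a14 and Cyp4a10 had the order WT at 4 weeks, KO at 4 weeks, KO at 8 weeks, WT at 8 weeks. For Cyp4a14 the KO and WT arrays overlapped at 8 weeks only, and for Cyp4a10 the KO arrays of 8 weeks also overlapped those of KO and WT at 4 weeks. Cyp4a31 and Cyp4a32 had the highest mean in WT at 4 weeks, then in KO at 4 weeks. For Cyp4a31 the KO and WT arrays of 8 weeks overlapped each other and lay below every 4-week array. For Cyp4a32 the KO arrays of 4 weeks, 9.46 to 10.61, overlapped those of KO (8.58 to 11.41) and WT (8.53 to 10.56) at 8 weeks. The highest KO array of 8 weeks also lay above the lowest WT array of 4 weeks, at 11.33. Cyp4f15 was lowest in KO at 4 weeks, below every array of the other 3 groups. Cyp4f14 group means differed by less than 1 unit, from 15.06 in KO to 15.81 in WT, both at 4 weeks, and Cyp4b1 means lay between 7.59 and 8.05 with all groups overlapping.

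The first question was how KO livers differ from WT livers at 4 weeks. Cyp4a10, Cyp4a31, Cyp4a32, Cyp4f14 and Cyp4f15 were lower in KO, at 22.4% to 59.5% of the WT level, and none of the 9 genes was called higher. Of all genes tested, 5.48% were called lower, 4.7% higher and 10.2% in either direction. The median difference of the 9 was -1.05, beside 0.002 for all genes. Groups did not overlap, with KO lower, for 6 of the 9, against 4.49% of all genes, the sixth being Cyp4a14. None of the 9 was apart with KO higher, as 4.06% of all genes were. Without the 3 arrays with muscle transcripts 3 of the 9 were called lower, Cyp4a32, Cyp4f14 and Cyp4f15.

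Cyp4a10 hydroxylates lauric and arachidonic acid. Its signal was 15.42, 14.42, 14.64, 14.54 and 14 on the KO arrays, against 15.67, 16.98, 16.6, 16.12 and 17.09 on the WT arrays. All 5 KO arrays lay below all 5 WT arrays. The difference was -1.89 (SE 0.57), which put KO at 27% of WT (limma adjusted p = 0.0371, exact permutation p = 0.00794, the smallest that 5 against 5 arrays allow). No call was made without KO replicate 2, 3, 4 or 5 or WT replicate 2, 3 or 5, each left out alone (adjusted p up to 0.0922), without the 3 arrays with muscle transcripts (-1.76, adjusted p = 0.141), and with values above 16, the ceiling of a 16-bit scanner, set to 16 (-1.33, adjusted p = 0.177), or with eBayes trend and robust settings (adjusted p = 0.0757). The sources used here do not say how values above 16 arose, and 4 of the WT values are of this kind.

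Cyp4a31 and Cyp4a32 are its close copies. Cyp4a31 gave 11.42, 10.5, 11.29, 11.16 and 10.6 in KO, against 11.64, 12.84, 12.66, 12.4 and 12.79 in WT. Cyp4a32 gave 10.61, 9.46, 10.09, 9.88 and 10 in KO, against 11.33, 12.62, 12.16, 11.91 and 12.82 in WT. In both genes WT replicate 1 was the lowest WT array and KO replicate 1 the highest KO array, and the groups did not overlap. Cyp4a32 differed by -2.16 (SE 0.43, adjusted p = 0.00202), the largest fall among the 9, and Cyp4a31 by -1.47 (SE 0.35, adjusted p = 0.00918). Without the arrays with muscle transcripts the values were -2.18 (adjusted p = 0.0162) for Cyp4a32 and -1.41 (adjusted p = 0.0557) for Cyp4a31.

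Cyp4f14, which in the mouse acts on leukotriene B4 and on the side chain of vitamin E, gave 14.68, 15.16, 14.93, 15.31 and 15.2 in KO, against 15.52, 16.13, 16.07, 15.38 and 15.93 in WT. The gap between the groups was narrow, from the highest KO array at 15.31 to the lowest WT array at 15.38. The difference was -0.75 (SE 0.17, adjusted p = 0.00674), or 59.5% of WT. Cyp4f15, a second leukotriene B4 hydroxylase, gave 11.69, 11.68, 12.63, 11.57 and 12.59 in KO, against 12.98, 13.44, 12.9, 13.02 and 13.09 in WT. Its KO arrays formed a high pair, replicates 3 and 5, and 3 lower ones, all below WT. The difference was -1.05 (SE 0.22, adjusted p = 0.00291), or 48.2% of WT. Both calls held without the arrays with muscle transcripts, at -0.99 (adjusted p = 0.00377) for Cyp4f14 and -1.10 (adjusted p = 0.00895) for Cyp4f15, and on leaving out any single array.

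RefSeq promoters were given for 3 of these 5 called genes, and the 150 bases before the first listed start are shown for them because these genes moved the same way at 4 weeks. Capitals mark ATTGG, the reverse of the CCAAT box, a motif chosen after the sequences were read. The windows are chr4:115600788-115600937 on the plus strand for Cyp4a32, chr17:32917357-32917506 on the minus strand for Cyp4f14 and chr17:32685509-32685658 on the plus strand for Cyp4f15, in GRCm38.p6.
Cyp4a32: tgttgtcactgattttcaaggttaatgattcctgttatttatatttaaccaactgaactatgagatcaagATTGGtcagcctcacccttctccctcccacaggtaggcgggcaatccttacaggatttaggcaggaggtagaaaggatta
Cyp4f14: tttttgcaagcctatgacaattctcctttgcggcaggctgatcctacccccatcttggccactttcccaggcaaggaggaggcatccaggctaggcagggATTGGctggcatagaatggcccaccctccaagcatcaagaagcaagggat
Cyp4f15: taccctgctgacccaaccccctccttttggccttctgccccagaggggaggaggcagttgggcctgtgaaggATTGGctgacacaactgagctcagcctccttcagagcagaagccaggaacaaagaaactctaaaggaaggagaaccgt
ATTGG began 80 bases before the start in Cyp4a32, 78 in Cyp4f15 and 50 in Cyp4f14, on the same strand as the gene in each. In windows from 250 bases before to 50 after the start, ATTGG on either strand was held by 37.4% of 32851 RefSeq promoters. The motif AGGTCA and the direct repeat of it with 1 base between, which PPAR and RXR bind, were searched on both strands of the same windows and not found in these 3. AGGTCA was held by 16.3% of all promoters and the direct repeat, which contains it, by 0.0396%. The STAT5 motif TTCNNNGAA, held by 8.3% of all promoters, was found in Cyp4b1 only, 187 bases before the start. The longest runs shared by the Cyp4f14 and Cyp4f15 stretches shown were 2 of 10 bases, ggATTGGctg, which holds the marked motif and stood in 0.438% of promoters, and ggaggaggca, which stood in 0.49%.

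Cyp4a14, a PPARalpha-responsive gene known to be higher in female than in male mouse tissue, was not called at 4 weeks. It gave 16.58, 15.87, 16.12, 15.49 and 15.34 in KO, against 16.88, 17.5, 17.33, 16.9 and 17.44 in WT. Every KO array lay below every WT array. The difference was -1.33 (SE 0.56, limma adjusted p = 0.146, limma unadjusted p = 0.026, unadjusted exact permutation p = 0.00794). In a fit of the 4-week arrays alone the adjusted p was 0.00379, and with values above 16 set to 16 the difference was -0.26. It was -1.10 (adjusted p = 0.38) without the arrays with muscle transcripts.

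Cyp4a12a and Cyp4a12b are male-predominant genes in the mouse, and Cyp4a12a is the main source of the vasoactive eicosanoid 20-HETE in its kidney. At 4 weeks Cyp4a12a gave 9.58, 13.45, 6.57, 13.58 and 5.29 in KO, against 4.23, 6.9, 5.07, 5.27 and 9.35 in WT. KO replicates 2 and 4 stood far above the rest, and the groups overlapped. KO replicate 5 and WT replicates 1, 3 and 4 were near or below background, which was 5.04 in KO and 5.015 in WT. Differences from WT at 4 weeks therefore start close to background. The difference was 3.53 (SE 1.23, adjusted p = 0.0745, exact permutation p = 0.111). It was called on leaving out KO replicate 3 (4.31, adjusted p = 0.0322), KO replicate 5 (4.63, adjusted p = 0.00997) or WT replicate 5 (4.33, adjusted p = 0.0333). Cyp4a12b gave 8.47, 11.08, 5.97, 11.12 and 5.7 in KO, against 5.54, 7, 6.81, 5.59 and 8.49 in WT, with the same 2 KO arrays high. Its difference was 1.78 (SE 0.83, adjusted p = 0.208), and 2.47 without KO replicate 5 (adjusted p = 0.0473). Without the arrays with muscle transcripts the differences were 3.48 (adjusted p = 0.0721) for Cyp4a12a and 1.55 (adjusted p = 0.262) for Cyp4a12b. Cyp4b1, better known from lung, where it activates some toxins, averaged 7.95 ± 0.31 in KO and 7.97 ± 0.37 in WT (SD, n = 5 each), a difference of -0.02 with a 95% interval of -0.51 to 0.46.

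**Figure D2:**
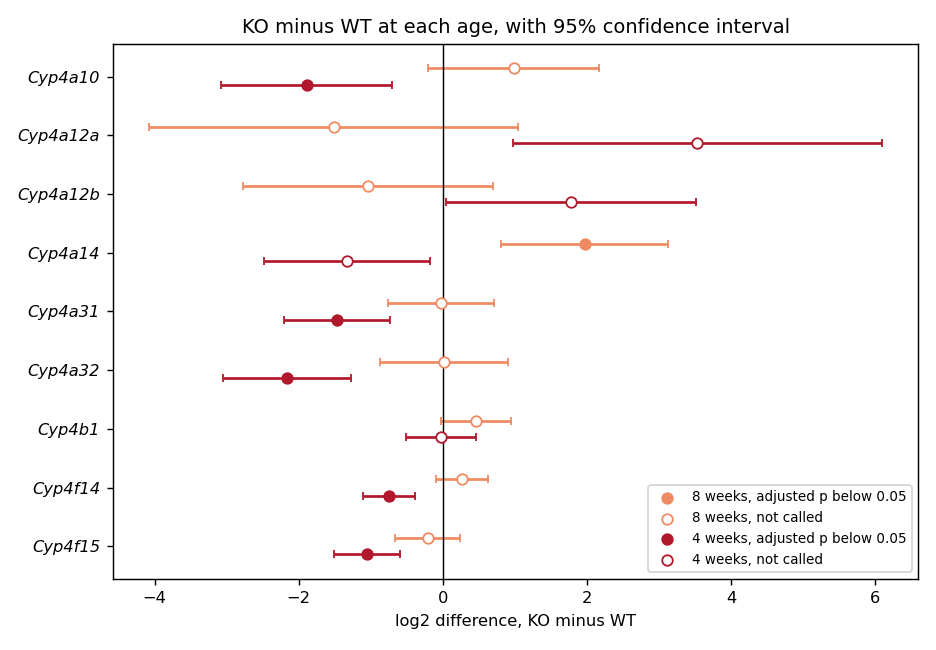
Log2 difference, KO minus WT (horizontal axis), for the 9 Cyp4 genes at 8 and 4 weeks, with unadjusted 95% confidence intervals; filled points have a limma adjusted p below 0.05. The 5 filled points at 4 weeks lie left of 0, and the 1 filled point at 8 weeks, Cyp4a14, lies at 1.97.

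At 8 weeks KO livers had more Cyp4a14 than WT livers, and this was the only one of the 9 genes called. Of all genes tested, 4.94% were called higher, 1.65% lower and 6.58% in either direction. The median difference of the 9 was 0.01, beside -0.04 for all genes. For none of the 9 were the groups apart, while 4.13% of all genes had KO wholly higher and 1.96% wholly lower. Cyp4a14 gave 9.46, 10.06, 11.54, 13.27 and 11.01 in KO, against 9.25, 7.06, 10.22, 9.34 and 9.64 in WT. Replicate 4 was the highest KO array and replicate 2 the lowest WT array, and the groups overlapped. The difference was 1.97 (SE 0.56, adjusted p = 0.0344, exact permutation p = 0.0476), which put KO at 391% of WT. No call was made without KO replicate 3, 4 or 5 or WT replicate 1, 2 or 4, each left out alone. It was 1.42 (adjusted p = 0.0849) without KO replicate 4 and 1.46 (adjusted p = 0.104) without WT replicate 2. In a fit of the 8-week arrays alone the adjusted p was 0.109, with eBayes trend and robust settings 0.0735 and with array weights 0.0651. At this age 4 of 9 macrophage, 6 of 7 cholangiocyte and 6 of 10 stellate cell and fibroblast markers were called higher in KO, and their part in the Cyp4a14 difference was not tested.

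The other Cyp4a genes of the PPARalpha-responsive kind were not called at 8 weeks. Cyp4a10 gave 11.88, 13.25, 12.65, 15.74 and 12.52 in KO, against 11.74, 10.54, 12.69, 12.61 and 13.55 in WT. KO replicate 4 stood far above the other KO arrays, and the groups overlapped. The difference of 0.98 (SE 0.57, adjusted p = 0.369) was 0.35 without that array. Cyp4a31 averaged 8.07 ± 0.83 in KO and 8.09 ± 0.68 in WT (SD, n = 5 each), a difference of -0.02 with a 95% interval of -0.76 to 0.71. Cyp4a32 averaged 9.54 ± 1.08 in KO and 9.53 ± 0.79 in WT (SD, n = 5 each), a difference of 0.01 with an interval of -0.88 to 0.91. KO replicate 4 was the highest of the KO arrays in Cyp4a10, Cyp4a14, Cyp4a31 and Cyp4a32 alike.

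Cyp4a12a gave 16.11, 15.53, 14.77, 15.38 and 17.1 in KO at 8 weeks, against 17.36, 17.39, 17.43, 17.91 and 16.36 in WT. The 4 other KO arrays lay below every WT array, and KO replicate 5 lay above WT replicate 5. The difference was -1.51 (SE 1.23, limma adjusted p = 0.557, limma unadjusted p = 0.233), with an unadjusted exact permutation p of 0.0159. The shared spread of the 4-group fit holds the wide scatter of the 4-week arrays, and in a fit of the 8-week arrays alone the adjusted p was 0.0291. With values above 16 set to 16 the difference was -0.46. Cyp4a12b gave 14.93, 14.31, 13.79, 13.76 and 15.2 in KO, against 15.41, 15.53, 15.24, 16.1 and 14.92 in WT, with a difference of -1.04 (adjusted p = 0.548, exact permutation p = 0.0238). The 8-week differences of Cyp4f14 (0.27, 95% interval -0.09 to 0.63), Cyp4f15 (-0.21, -0.67 to 0.24) and Cyp4b1 (0.46, -0.02 to 0.94) were not called.

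Whether the KO effect differed between the ages was tested as the KO minus WT difference at 8 weeks minus that at 4 weeks, from the same 20 arrays. Cyp4a14 and Cyp4f14 were called, both in the positive direction, among 2.05% of all genes called positive, 1% negative and 3.05% in either direction. The median of the 9 was 1.02, beside -0.02 for all genes. For Cyp4a14 the KO minus WT difference was 1.97 at 8 weeks and -1.33 at 4 weeks, an interaction of 3.30 (SE 0.79, limma adjusted p = 0.0244). That call was lost with values above 16 set to 16 (2.23, adjusted p = 0.163), without the arrays with muscle transcripts (3.06, adjusted p = 0.0757), and with eBayes trend and robust settings (3.30, adjusted p = 0.0544). For Cyp4f14 the differences were 0.27 at 8 weeks and -0.75 at 4 weeks, an interaction of 1.02 (SE 0.25, adjusted p = 0.0259). It was lost without WT replicate 2 (adjusted p = 0.0505) or WT replicate 3 (adjusted p = 0.0518) of 4 weeks and held without the arrays with muscle transcripts (1.26, adjusted p = 0.0137). Cyp4a10 (2.87, adjusted p = 0.0553) and Cyp4a32 (2.17, adjusted p = 0.0537) were just outside the threshold. Cyp4a10 was called when KO replicate 1 or 3 or WT replicate 5 of 8 weeks or WT replicate 1 of 4 weeks was left out alone. Cyp4a32 was called without KO replicate 3 or 5 or WT replicate 3 of 8 weeks, or WT replicate 1 of 4 weeks. Cyp4a12a ran the other way, with -1.51 at 8 weeks and 3.53 at 4 weeks, and its interaction of -5.04 was not called (adjusted p = 0.131), except without KO replicate 5 of 4 weeks (-6.14, adjusted p = 0.0333).

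Between 4 and 8 weeks several of these genes changed far more than between the genotypes. In WT liver Cyp4a12a and Cyp4a12b were higher at 8 weeks and Cyp4a10, Cyp4a14, Cyp4a31 and Cyp4a32 lower. That is 2 of 9 higher and 4 lower, beside 3.71% of all genes called higher, 5.23% lower and 8.94% in either direction, with a median of -0.51 for the 9 and 0.04 for all genes. In KO liver Cyp4a12a, Cyp4a12b and Cyp4f15 were higher at 8 weeks and Cyp4a14 and Cyp4a31 lower, 3 and 2 of 9. In KO 7.85% of all genes were called higher, 6.78% lower and 14.6% in either direction, and the medians were 0.10 for the 9 and 0.02 for all genes. The ages did not overlap for 3 genes higher and 2 lower in KO, beside 4.79% and 4.69% of all genes, and for 2 higher and 4 lower in WT, beside 3.7% and 5.38%. These comparisons share their arrays with the genotype comparisons.

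Cyp4a12a averaged 17.29 ± 0.57 at 8 weeks and 6.16 ± 2.03 at 4 weeks in WT (SD, n = 5 each). The difference was 11.13 (SE 1.23, limma adjusted p = 2.69e-06), and 9.84 with values above 16 set to 16. WT replicates 1, 3 and 4 of 4 weeks were near or below background, so the size of this difference depends on that floor. In KO Cyp4a12a averaged 15.78 ± 0.88 at 8 weeks and 9.69 ± 3.82 at 4 weeks, a difference of 6.08 (adjusted p = 0.0016). Cyp4a12b differed by 8.75 in WT (adjusted p = 3.19e-07) and by 5.93 in KO (adjusted p = 4.4e-05). No array of 8 weeks overlapped one of 4 weeks in either genotype. The interaction of Cyp4a12b, -2.82, was not called (adjusted p = 0.231).

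Cyp4a14 averaged 9.10 ± 1.20 at 8 weeks and 17.21 ± 0.30 at 4 weeks in WT (SD, n = 5 each). The WT difference was -8.11 (SE 0.56, adjusted p = 2.2e-09), and -6.90 with values above 16 set to 16. In KO it averaged 11.07 ± 1.47 at 8 weeks and 15.88 ± 0.50 at 4 weeks, a difference of -4.81 (adjusted p = 4.77e-06). The lowest 4-week array, at 15.34 in KO, was above the highest 8-week array, at 13.27. Cyp4a31 fell by 4.37 in WT (adjusted p = 3.13e-08) and by 2.92 in KO (adjusted p = 8.22e-06). Cyp4a10 fell by 4.27 in WT (adjusted p = 2.95e-05), and its KO difference was -1.40 (adjusted p = 0.113), or -2.03 without KO replicate 4 of 8 weeks (adjusted p = 0.00423). Cyp4a32 fell by 2.64 in WT (adjusted p = 0.000267), and its KO difference was -0.47 (adjusted p = 0.549).

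Cyp4f15 gave 13.18, 13.1, 13.89, 13.79 and 13.1 in KO at 8 weeks, and the 4-week KO values given above lay from 11.57 to 12.63. The difference was 1.38 (SE 0.22, adjusted p = 0.000156) with no overlap. In WT it was 0.54 (adjusted p = 0.139). Cyp4f14 went opposite ways, 0.50 in KO (adjusted p = 0.0549) and -0.51 in WT (adjusted p = 0.0685), and neither was called in the 4-group fit. The KO difference was called, with all arrays kept, when the dimmest genes were left out (adjusted p = 0.0473), with a ceiling of 16 (0.046), with eBayes trend and robust settings (0.044) and with array weights (0.0438), and the WT difference with array weights (-0.56, adjusted p = 0.0244). Without the arrays with muscle transcripts both were called, at 0.64 in KO (adjusted p = 0.0312) and -0.62 in WT (adjusted p = 0.0339). Of single arrays left out, the KO difference was called without KO replicate 5 of 8 weeks (0.63, adjusted p = 0.0152) or KO replicate 4 of 4 weeks (0.57, adjusted p = 0.0457), and the WT difference without WT replicate 4 of 4 weeks (-0.62, adjusted p = 0.0337). Cyp4b1 differed by 0.10 in KO and -0.38 in WT, neither called.

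**Figure D3:**
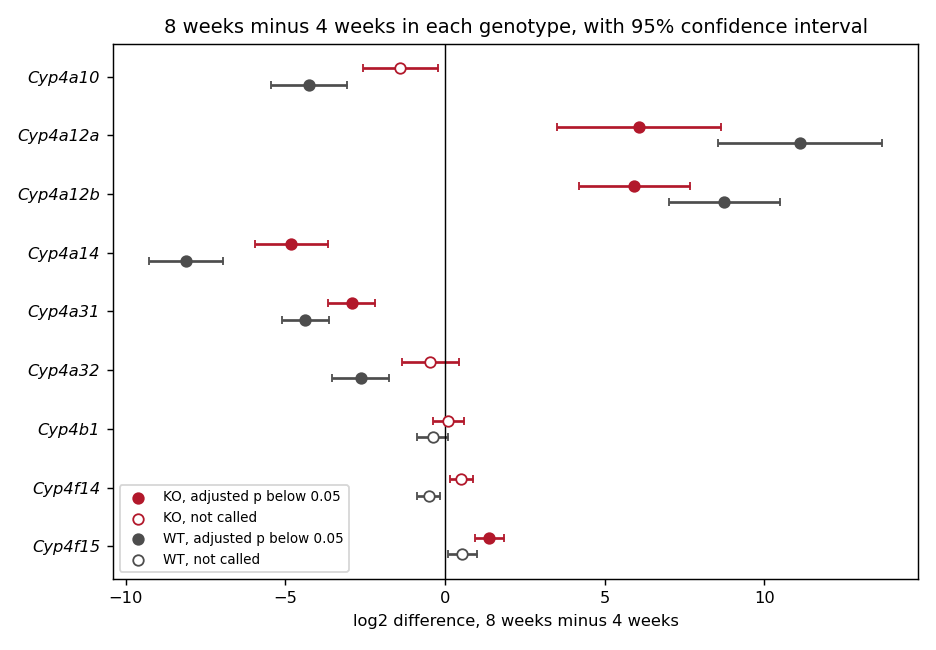
Log2 difference, 8 weeks minus 4 weeks (horizontal axis), for the 9 Cyp4 genes in KO and WT livers, with unadjusted 95% confidence intervals; filled points have a limma adjusted p below 0.05. Cyp4a12a and Cyp4a12b lie between 5.93 and 11.13, and Cyp4a14 at -4.81 in KO and -8.11 in WT.

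How the 9 genes varied together from mouse to mouse was described with deviations from the group mean over the 20 arrays, for 36 pairs, with p-values from permutations within groups. Cyp4a12a and Cyp4a12b moved almost as one, with Pearson r = 0.975 and Spearman rho = 0.899 (Benjamini-Hochberg adjusted permutation p = 0.00036 and 0.002). Leaving out the 2 arrays farthest from the median gave r = 0.959. Cyp4a10, Cyp4a14, Cyp4a31 and Cyp4a32 formed a second block, in which r ran from 0.753 for Cyp4a14 with Cyp4a32 to 0.889 for Cyp4a10 with Cyp4a31. The block's 6 adjusted permutation p-values for r lay between 0.0016 and 0.017, and without the 2 farthest arrays its r values ran from 0.521 to 0.815. Between the blocks r lay near 0, from -0.112 for Cyp4a12b with Cyp4a32 to 0.083 for Cyp4a12a with Cyp4a31. The strongest negative pair, Cyp4a12b with Cyp4f15 at r = -0.63 and rho = -0.585, did not pass (adjusted permutation p = 0.25 and 0.18).

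Of the genes outside the family, those most like Cyp4a12a in these deviations were C6, a complement component, at r = 0.909, the organic anion transporter Slco1a1 at 0.895 and Cmah, which makes N-glycolylneuraminic acid, at 0.862, over 20 arrays. The same 3 came first for Cyp4a12b, at 0.913, 0.884 and 0.866. Slco1a1 gave 12.7, 14.44, 9.39, 14 and 8.36 on KO replicates 1 to 5 of 4 weeks, highest on replicates 2 and 4 and lowest on replicates 3 and 5, as Cyp4a12a was. Cyp4a12a scattered most on these arrays, with deviations from -4.40 to 3.89. In KO at 8 weeks replicate 5 was highest and replicate 3 lowest for both Cyp4a12a and C6. In WT at 8 weeks replicate 4 was highest for Cyp4a12a (deviation 0.62) but lowest for C6 (-0.52). Slco1a1 deviations there ran only from -0.07 to 0.11. For Cyp4a14 the most alike genes were Tmem86a (0.867), Emc7 (0.782) and Nkx6-1 (0.762), and for Cyp4a10 Tmem86a (0.782), Gpatch2l (0.778) and Emc7 (0.768). For Cyp4a31 they were the fatty acid oxidation enzymes Acaa2 (0.866) and Ech1 (0.787), and Mrpl36 (0.785). The nearest to Cyp4f15 was Serpinf2 (0.851), to Cyp4f14 Fig4 (0.842), to Cyp4a32 Mlst8 (0.838) and to Cyp4b1 Gm2a (0.789). All these are the highest r found among every non-member gene above background in any group. How high such a search reaches by chance was not tested.

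**Figure D4:**
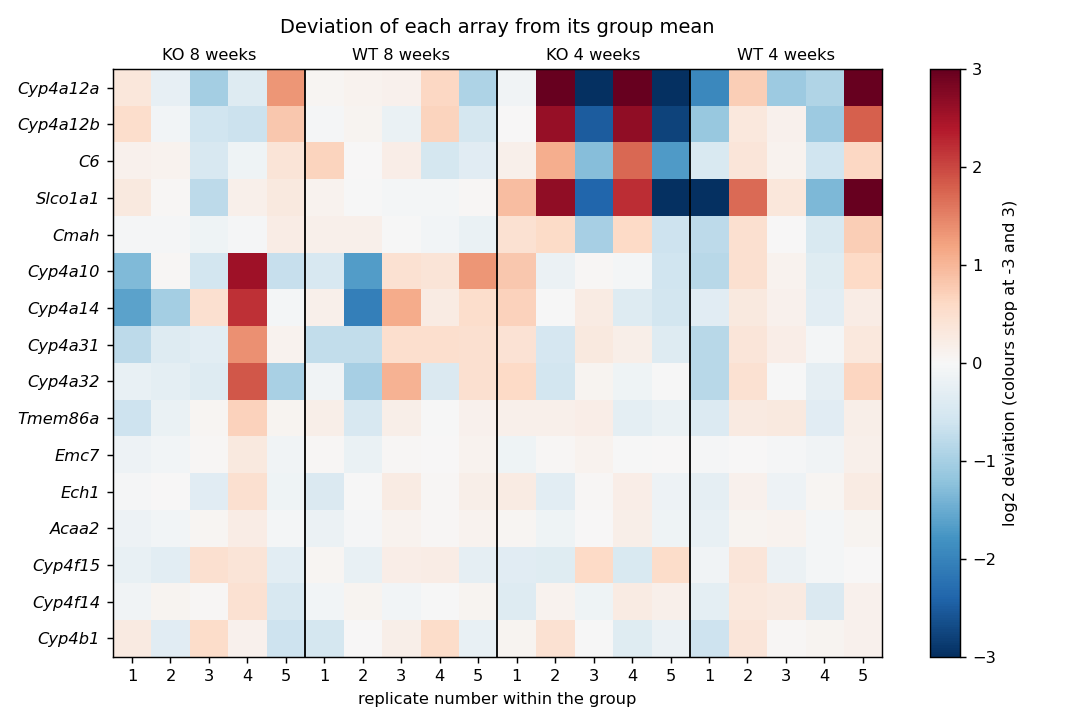
Log2 deviation of each array (columns, by replicate number within KO and WT groups at 8 and 4 weeks) from its group mean, for the 9 Cyp4 genes and 7 of the genes most like them; red is above and blue below the group mean. Cyp4a12a, Cyp4a12b and Slco1a1 are all red on KO replicates 2 and 4 and all blue on KO replicates 3 and 5 of 4 weeks, and KO replicate 4 of 8 weeks is red in Cyp4a10, Cyp4a14, Cyp4a31 and Cyp4a32.

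The 10 other Cyp4 genes on the array were set beside them. Beside 5.48% of all genes called lower and 4.7% higher at 4 weeks, 3 of the 10 were lower in KO and none higher, with a median of -0.30. They were Cyp4f17 (-1.21, adjusted p = 0.0029), Cyp4a30b (-0.53, adjusted p = 0.0108) and Cyp4f13 (-0.68, adjusted p = 0.0179). Cyp4a30b lay near background, from 4.91 to 5.55 in KO (background 5.04) and from 5.59 to 5.86 in WT (background 5.015). At 8 weeks Cyp4f13 was lower (-0.60, adjusted p = 0.0489) and the other 9 were not called, beside 1.65% of all genes lower and 4.94% higher. Cyp4f13, the chromosome 17 neighbour of Cyp4f14, gave 10.36, 10.63, 10.22, 10.72 and 10.76 in KO at 8 weeks, against 11.03, 11.08, 11.37, 11.06 and 11.15 in WT, without overlap. Between the ages it was higher at 8 weeks in KO (1.24) and in WT (1.16), and Cyp4f17 in KO (1.06). Cyp4a29, Cyp4f39, Cyp4f40 and Cyp4x1 were not above background in any group, and Cyp4f16, Cyp4f18 and Cyp4f37 were not called in any comparison.

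The enzymes around the Cyp4 step were described next. Of the electron donors Cyb5a, Cyb5b and Cyb5r3 none was called in any of the 5 comparisons, and Por, the P450 reductase gene, was not analysed here. Of 22 measured genes of omega-oxidation and peroxisomal shortening, KO livers of 4 weeks had 2 higher and 4 lower, with a median of -0.34. The shares of all genes were 4.7% higher and 5.48% lower. The alcohol dehydrogenase gene Adh4 was higher (1.36, adjusted p = 0.0447), as was Scp2, and Decr2 (-0.96), Ehhadh (-0.94), Ech1 (-0.58) and Adh5 (-0.47) were lower. Without the arrays with muscle transcripts none of them was higher and 2 were lower. At 8 weeks 1 of the 22 was higher, the peroxisomal fatty acid transporter gene Abcd2, and 1 lower, Adh5 (-0.58), with a median of -0.33. The shares of all genes at this age were 4.94% higher and 1.65% lower. Abcd2 gave 8.57, 9.84, 10.7, 9.82 and 9.35 in KO at 8 weeks, against 6.89, 6.55, 6.07, 7.15 and 8.37 in WT, a difference of 2.65 (adjusted p = 0.000188) without overlap.

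Of 28 measured PPARalpha targets outside the family, 8 were lower and 2 higher in KO at 4 weeks, with a median of -0.40. Over all genes, 5.48% were called lower and 4.7% higher. The acyl-CoA thioesterase genes Acot3 (-2.26, adjusted p = 0.000579), Acot4 (-1.58, adjusted p = 5.01e-05) and Acot1 (-1.52, adjusted p = 0.0117) fell most. The hormone gene Fgf21 (2.20, adjusted p = 0.000348, not above background in WT, so at least 1.44 on the log2 scale) and the lipid droplet gene Cidec (1.49, adjusted p = 0.00355) were higher. At 8 weeks the fatty acid transporter gene Cd36 was higher (2.64, adjusted p = 0.000147), Slc25a20 was lower (-0.68, adjusted p = 0.0499), and the median was -0.07. These are 1 higher and 1 lower of 28, beside 4.94% and 1.65% of all genes. Without the arrays with muscle transcripts the counts were 3 higher and 0 lower at 8 weeks, and 2 higher and 7 lower at 4 weeks.

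Of 18 measured regulators, none was called at 8 weeks, beside 4.94% of all genes called higher and 1.65% lower. Beside 5.48% of all genes called lower and 4.7% higher at 4 weeks, 5 regulators were lower and none higher in KO, with a median of -0.53. They were Nr1i3 (-1.47), the estrogen receptor gene Esr1 (-1.07), the PPARalpha partner Rxra (-0.75), the growth hormone receptor gene Ghr (-0.66) and the glucocorticoid receptor gene Nr3c1 (-0.61), with adjusted p from 0.00484 to 0.0244. With the muscle arrays left out, 4 regulators were lower. Ppara itself averaged 10.998 ± 0.587 in KO and 11.504 ± 0.671 in WT at 8 weeks, and 11.158 ± 0.580 in KO and 11.626 ± 0.554 in WT at 4 weeks (SD, n = 5 each), and was not called at either age. Its coactivator gene Ppargc1a was lower at 8 weeks than at 4 weeks, by -1.37 in KO and -2.63 in WT. The leptin receptor gene Lepr was lower too, by -3.25 and -3.89. Of the 18 regulators, 4 were called higher and 2 lower at 8 weeks in KO, with a median of 0.11. In WT 1 was higher and 2 lower, with a median of -0.14. Over all genes, 7.85% were called higher and 6.78% lower in KO, and 3.71% and 5.23% in WT. With the muscle arrays left out, 4 were higher and 1 lower in KO, and 0 and 2 in WT.

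Since Cyp4a12 and Cyp4a14 are sex-biased in mouse liver, other such genes were listed. Of 19 measured male-biased genes, 5 were lower and none higher in KO at 8 weeks, with a median of -0.78. At 4 weeks KO livers had 6 of them higher and 2 lower, with a median of 0.04. Of 24 measured female-biased genes, 5 were higher and none lower in KO at 8 weeks, with a median of 0.35, and 10 were lower and none higher at 4 weeks, with a median of -1.23. The shares of all genes were 4.94% higher and 1.65% lower at 8 weeks, and 4.7% higher and 5.48% lower at 4 weeks. Elovl3 (5.38) and Mup20 (4.26) were the male-biased genes with the largest rises at 4 weeks, and Hao2 (-3.88) and Slc22a26 (-3.57) the female-biased ones with the largest falls. Elovl3 ran from 3.46 to 8.26 on WT arrays of 4 weeks, around the background of 5.015, so the size of its rise depends on that floor. Mup20 ran from 16.89 to 19 on KO arrays of 4 weeks, all above 16. With the muscle arrays left out, the 4-week counts were 5 higher and 1 lower for the male-biased and 1 higher and 9 lower for the female-biased genes. In WT 16 of the 19 male-biased genes were higher at 8 weeks than at 4 weeks and 1 lower, and 22 of the 24 female-biased genes were lower. In KO the counts were 10 higher of 19 and 14 lower of 24. Between the ages 3.71% of all genes were called higher and 5.23% lower in WT, and 7.85% and 6.78% in KO. Acot3, Acot4 and Abcd2 stand in the female-biased list and in those above. Other genes also stand in more than 1 list, such as Ehhadh and Ech1 in both the peroxisomal and the PPARalpha list. The counts of the lists are therefore not independent of each other.

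**Figure D5:**
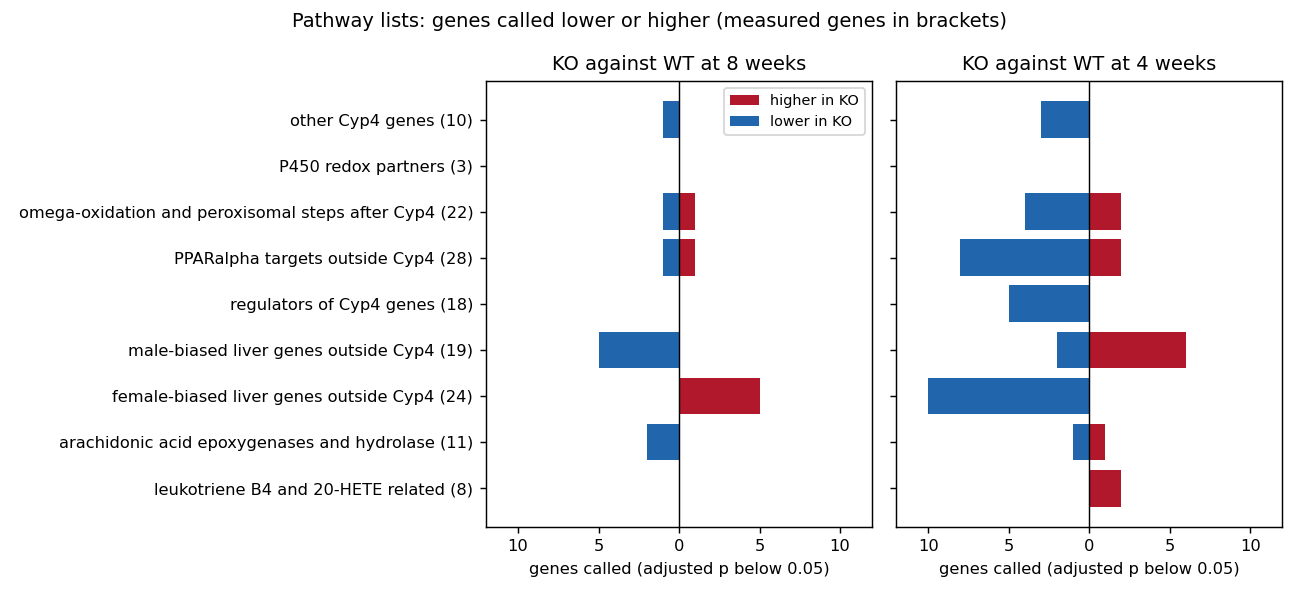
Number of genes called lower (left of 0) or higher (right of 0) in KO than in WT at a limma adjusted p below 0.05, at 8 and 4 weeks, for 9 gene lists with the number measured in brackets. Female-biased genes have 5 higher at 8 weeks and 10 lower at 4 weeks, beside 4.94% and 5.48% of all genes.

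In the neighbouring eicosanoid pathways, of 11 measured epoxygenase and epoxide hydrolase genes, Ephx1 was higher (1.47, adjusted p = 4.99e-05) and Cyp2j5 lower (-1.002, adjusted p = 5.92e-05) in KO at 4 weeks, and Cyp2c37 (-0.996) and Cyp2j5 (-0.48) were lower at 8 weeks. With the muscle arrays left out, 1 was lower at 8 weeks. The list's median was -0.13 at 8 weeks and -0.32 at 4 weeks. Over all genes, 4.94% were called higher and 1.65% lower at 8 weeks, and 4.7% higher and 5.48% lower at 4 weeks. Of 8 measured genes of leukotriene B4 and 20-HETE handling, Ptgr1 (1.60, adjusted p = 0.00751), which inactivates leukotriene B4, and Alox5ap (0.71, not above background in WT, so at least 0.69) were higher at 4 weeks, and none was called at 8 weeks.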

How the data were processed

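RNA of 20 powdered livers, 5 per genotype and age, was hybridised to Clariom S Mouse arrays, and the labels gave each liver's genotype and age. Per the submitters' processing notes, the authors used RMA in Affymetrix Expression Console, whose versions are not named, and deposited 1 log2 value per feature and array. These log2 values spanned 2.32 to 19.85, array medians spanned 5.42 to 5.58, and each array had 254 to 288 features above 16. Arrays of a group correlated at a mean r of 0.977 to 0.99. Arrays give no read depth, and their number limits the precision. Of 22206 features 19572 had 1 gene symbol and 2634 were left out; for 55 symbols with several features the one with the highest mean was used, which gave 19505 genes.

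A model of 4 group means with 16 residual degrees of freedom was fitted to these log2 values in limma 3.58.1 (R 4.3.3), with no covariate. Adjusted p-values are Benjamini-Hochberg values over all 19505 genes and a gene was called at an adjusted p below 0.05. All tests were two-sided, and single genes also had an exact permutation test, whose smallest p is 0.00794. The exact permutation p-values are not adjusted for the number of genes. The fit was tested on simulated data. The series' design text counts 5 mice per group.

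The members and gene lists were chosen with earlier results of these data known, so the counts over them are descriptions. The text names Ogt, the members, the other Cyp4 genes, up to 4 genes with the smallest adjusted p per list and comparison, and for each member the non-member genes with the highest r of deviations from group means; Cyb5a, Cyb5b and Cyb5r3 and the repeats of a gene in a further comparison stand beside them. Arrays with muscle transcripts are those whose mean over the muscle markers lay more than 3 units above the rest. Promoters came from RefSeq (GRCm38.p6), where 5 of the 10 symbols matched; protein sequences were not used here. Alternatives were fits of the 2 groups compared, equal array medians, repeated quantile normalization, leaving out the dimmest 25% of genes, a ceiling of 16, eBayes with trend and robust settings, array weights, the replicate number as a block, the mean of all features of a symbol, all features tested, and fits without the muscle arrays or without each array.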

Additional observations from a re-analysis of the deposited data

Results flagged for a closer look

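Cyp4a32 in KO at 8 weeks had 1 array far from the others. KO replicate 4 had a log2 signal of 11.41, while the other 4 arrays lay from 8.58 to 9.31, and the gap as a share of the group's range was above the critical value of 0.71 for 5 samples. Chance marks about 1 in 20 groups in this way. The rule was applied to Ogt and the 9 Cyp4 genes in each of the 4 groups, and no other group was marked. KO replicate 4 was also the highest KO array of 8 weeks in Cyp4a10, Cyp4a14 and Cyp4a31, at 15.74, 13.27 and 9.44.

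The KO minus WT difference differed between the ages, as 8 weeks minus 4 weeks, for 3 genes among Ogt and the 9 Cyp4 genes measured. For Ogt the interaction was 1.16 (limma adjusted p = 0.0307), and the call was lost without any 1 of 7 arrays, which were KO replicates 1 and 2 and WT replicates 1 and 3 of 8 weeks and WT replicates 2, 3 and 4 of 4 weeks (adjusted p = 0.0514 to 0.0605). For Cyp4a14 the interaction was 3.3 (adjusted p = 0.0244), from a difference of 1.97 at 8 weeks and -1.33 at 4 weeks. For Cyp4f14 it was 1.02 (adjusted p = 0.0259), from 0.27 at 8 weeks and -0.75 at 4 weeks.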

How the results depend on the processing

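With 1 choice changed at a time, the number of Cyp4 genes called moved by over 1.5 times in 3 of the 5 comparisons, and the cause was not tested. For KO against WT at 8 weeks (1 called) it was 0 with eBayes trend and robust settings, 0 with array weights, and 0 to 1 on leaving out single arrays. For KO against WT at 4 weeks (5 called) it was 3 without the arrays with muscle transcripts and 4 to 6 on leaving out single arrays. For the interaction (2 called) it was 4 without the dimmest genes, 4 with array weights, 1 with a ceiling of 16, 1 with trend and robust settings, 1 without the muscle arrays, and 1 to 4 on leaving out single arrays. Between the ages, single arrays left out gave 5 to 6 genes in KO (5 called) and 6 to 7 in WT (6 called). The interaction had no fit of 2 groups. Changes of sign touched only differences near 0 that were not called. Cyp4a32 at 8 weeks was -0.079 with equal array medians, -0.011 with repeated quantile normalization, -0.009 with array weights, and -0.453 to 0.272 on leaving out single arrays, and Cyp4a31 ran from -0.366 to 0.171. Cyp4b1 at 4 weeks was 0.018 with array weights, 0.177 without the muscle arrays, and -0.179 to 0.068 on leaving out single arrays. Cyp4b1 between the ages in KO was -0.077 without the muscle arrays and -0.033 to 0.257 on leaving out single arrays. Over single genes and settings, 1056 of 1140 values kept direction and call, 31 became called, 32 lost the call and 21 changed sign. The total includes the mean of all features of a symbol and the test of all features. Each measured member had 1 feature, so in these settings its difference could not change and only its p-value could move. Equal array medians gave 817 genes higher and 727 lower at 8 weeks (963 and 321 as deposited) and 716 higher and 1349 lower at 4 weeks (917 and 1068), and left the members' split as it was.

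Groups share replicate numbers in the titles. Over 20 same-numbered pairs of arrays the deviations from group means correlated at r = -0.176 to 0.479, and 5 were over 0.1. Of these, 4 were among the 5 pairs of KO with WT at 4 weeks (r = -0.146 to 0.479). Since not every pair was over 0.1, the numbers were not taken to pair the mice. With the replicate block the members called were 1 for KO against WT at 8 weeks, 5 at 4 weeks, 2 for the interaction, 5 for the ages in KO and 6 in WT, the same numbers as without it. Over all genes, 1170 were called at 8 weeks (1284 without the block), 1804 at 4 weeks (1985) and 488 for the interaction (595).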

Other observations

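Cyp2b9, a female-biased hepatic P450 gene chosen here after its values were seen, stood apart on 1 WT array at 4 weeks. Its log2 signal was 14.52, 10.42, 13.77, 12.28 and 12.75 in KO and 14.93, 4.4, 15.37, 14.75 and 15.2 in WT. WT replicate 2 had 4.4, near the levels of the 8-week WT arrays, 3.32 to 5.22. On the same array Cyp4a14 and Cyp4a31 were the highest of WT at 4 weeks, at 17.5 and 12.84. WT replicate 5 was close behind, at 17.44 and 12.79. Cyp4a10 and Cyp4a32 were highest on WT replicate 5 instead, at 17.09 and 12.82.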
